A study of Mus musculus with 4 samples.

Results

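The RNAs described here are the long non-coding RNAs (lncRNAs) Meg3, Rian and Mirg of the Dlk1-Dio3 imprinted domain and Kcnq1ot1 of the Kcnq1 imprinted domain, as counted in mouse cortex. A further imprinted lncRNA, Peg13, was on the same list of 5 genes but had no row in the count table. The 4 counted genes hold 32 transcripts of the 37539 in the table and are 4 of the 18386 features obtained by summing transcripts per gene. Of these transcripts, 9 carried the symbol of Meg3, spelled in capitals. The other 23 had an empty symbol cell and were assigned to Rian (13 transcripts), Mirg (9) and Kcnq1ot1 (1) by their Ensembl transcript identifiers in GENCODE M21.

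The study compared cortical tissue of 2 male APPswe/PS1ΔE9 double transgenic mice (APP) with that of 2 male wild type mice (WT). All were aged 12 months and on a C57BL/6 background. The transgenes, a human APP gene with the Swedish mutation and a human presenilin 1 gene with an exon deleted, are driven in this line by the mouse prion protein promoter, which is active in neurons and in other cell types. The purpose was to find lncRNAs that differ in a model of amyloid deposition and that could compete for microRNAs (miRNAs). The count columns name the libraries APP.3, APP.4, WT.1 and WT.2, with totals from 28525117 to 43881196 counts.

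Genomic imprinting silences 1 parental copy of a gene. In the Dlk1-Dio3 domain, the maternal chromosome expresses a run of non-coding RNAs that includes Meg3, Rian and Mirg, while the protein-coding genes Dlk1, Rtl1 and Dio3 are expressed from the paternal one. Meg3 is an abundant nuclear RNA of neurons, Rian is the host of a large cluster of C/D box small nucleolar RNAs, and Mirg is the host of a large cluster of miRNAs. Kcnq1ot1 is transcribed from the paternal chromosome, antisense to the potassium channel gene Kcnq1, and represses its neighbours in cis. The counts do not separate the parental alleles.

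All positions are those of GRCm38. Meg3 spans chr12:109541001-109571726, Rian chr12:109603940-109661716 and Mirg chr12:109729764-109749460, all on the plus strand. Kcnq1ot1 spans chr7:143203458-143296549 on the minus strand and has 1 exon of 93092 bases. Of the transcripts annotated in GENCODE M21, the table held 9 of 11 for Meg3, 13 of 20 for Rian, 9 of 12 for Mirg and the single one of Kcnq1ot1.

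The promoters of the genes at the 5′ end of each domain's non-coding transcription are shown because transcription of Meg3 and Kcnq1ot1 begins there. Each runs from 250 bases before to 50 bases after the RefSeq start (GRCm38.p6). Capitals mark the cAMP-response element TGACGTCA, the TATA box TATAAA and the CCAAT box CCAAT, searched on both strands.
Meg3 promoter, chr12:109540746-109541045, plus strand: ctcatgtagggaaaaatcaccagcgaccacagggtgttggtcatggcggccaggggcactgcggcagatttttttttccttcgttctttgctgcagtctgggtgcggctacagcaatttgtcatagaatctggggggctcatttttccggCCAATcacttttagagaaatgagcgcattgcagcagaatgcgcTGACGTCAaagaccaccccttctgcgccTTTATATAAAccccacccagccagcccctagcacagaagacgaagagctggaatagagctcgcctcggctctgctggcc
Kcnq1ot1 promoter, chr7:143296498-143296797, minus strand: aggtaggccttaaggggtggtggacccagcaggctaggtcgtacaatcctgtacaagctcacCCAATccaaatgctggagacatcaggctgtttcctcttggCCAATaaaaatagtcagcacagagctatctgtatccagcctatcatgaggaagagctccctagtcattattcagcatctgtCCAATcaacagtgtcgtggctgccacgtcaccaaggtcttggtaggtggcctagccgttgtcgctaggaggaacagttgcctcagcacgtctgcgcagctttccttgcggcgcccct
The Meg3 promoter held 1 cAMP-response element, 57 bases upstream of the start, 1 CCAAT box and 2 overlapping TATA box matches on opposite strands. The Kcnq1ot1 promoter held 3 CCAAT boxes and neither of the other motifs. Of the 32851 mouse promoters of the same length, 1.79% held the cAMP-response element, 13.6% the TATA box and 37.4% the CCAAT box. A match describes letters in the window and is not evidence of binding. The window of Mirg, at chr12:109734731-109735030, held 1 CCAAT box. It lies inside the span of Mirg, around the start of Mirg-202, and not at the 5′ end of the gene. The windows of Rian and of a downstream Meg3 start, at chr12:109545148-109545447, held no match.

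The domain is also a miRNA locus. Between the start of Meg3 and the end of Mirg, RefSeq places 57 miRNA hairpins, 54 of them on the plus strand. Of these, 1 lies in an exon of a counted Meg3 transcript and 4 in exons of counted Mirg transcripts. A further 10 lie within Mirg and 3 within Rian but outside the exons of counted transcripts. For each exonic hairpin 1 arm is given with its seed (bases 2 to 8) in capitals, since these sequences were part of the transcripts counted.
miR-770-5p, chr12:109563710-109563731, in Meg3-209: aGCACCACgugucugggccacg
miR-134-5p, chr12:109734145-109734166, in Mirg-204, Mirg-208 and Mirg-212: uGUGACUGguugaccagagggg
miR-485-3p, chr12:109734946-109734967, in Mirg-204, Mirg-208 and Mirg-212: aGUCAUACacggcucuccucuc
miR-377-5p, chr12:109740515-109740536, in Mirg-201: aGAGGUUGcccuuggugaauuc
miR-410-5p, chr12:109743729-109743749, in Mirg-202, Mirg-204, Mirg-208 and Mirg-212: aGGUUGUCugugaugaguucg
These 5 miRNAs have 5 different seeds. The mature miRNAs were not measured in these libraries, so the values below are those of the host transcripts.

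The study followed a lncRNA with elements for miR-326-3p and for miR-330-5p, whose mature sequences show the seed they share.
miR-330-5p: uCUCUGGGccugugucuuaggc
miR-326-3p: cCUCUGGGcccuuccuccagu
The complement of this seed, the 7 bases CCCAGAG, was looked for in the sense strand of every transcript, because an imprinted lncRNA that holds it could be read against the study's question. It occurred 4 times in Meg3-209, or 0.275 per kilobase, and 21 times in Kcnq1ot1-201, or 0.226 per kilobase. It occurred once in Rian-201 (0.124 per kilobase) and not in Mirg-201, the highest Mirg transcript. It was present in 6 of the 9 Mirg transcripts, with 3 in Mirg-204 (0.785 per kilobase), the second highest, and 3 in Mirg-208 (0.941 per kilobase), which share exons. Over the 36845 counted transcripts with a sequence in GENCODE the density was 0.193 per kilobase, and 34.3% held at least 1. Windows of 30 bases around the element are given for 1 position in each gene that holds it, with the element, and an A after it where there is one, in capitals.
Meg3, element at chr12:109559046-109559052: attcactagagCCCAGAGgggcagaagggg
Rian, element at chr12:109649995-109650001: gtggagaatgaCCCAGAGAagcagacggaa
Mirg, element at chr12:109731741-109731747: atggtggatggCCCAGAGAcggcggggctc
Kcnq1ot1, element at chr7:143285375-143285381: attctgttcctCCCAGAGAggcctaaatgc
The Meg3 position lies in Meg3-201, Meg3-206 and Meg3-209, which together took most of the counts of the gene. The Mirg position lies in Mirg-204, Mirg-208 and Mirg-212. An A followed 2 of the 21 elements of Kcnq1ot1-201, 0 of the 4 of Meg3-209, the 1 of Rian-201 and 2 of the 3 of Mirg-204. The Kcnq1ot1 window printed is therefore not typical of that gene. A match is a description of the letters, and pairing was not measured.

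The 4 imprinted lncRNA genes were at close levels in APP and WT cortex. Meg3, Rian, Mirg and Kcnq1ot1 differed between the groups by log2 fold changes between -0.08 and 0.05, and none was called as differentially expressed. In all 4 genes the 95% confidence interval of the fold change lay inside 1.5-fold in either direction. No transcript of the 4 genes was called either, and the shares that the abundant transcripts took of their gene were close in the 4 libraries.

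Meg3 was the most abundant of the 4 genes. In APP.3 and APP.4 it had 65878 and 74030 counts, and in the WT libraries, WT.1 first, 101632 and 77194. Scaled to library size with TMM factors and given as counts per 1000000 (CPM), these were 2271, 2390, 2313 and 2178. APP.4 was the highest library and WT.2 the lowest, and WT.1 lay between the 2 APP libraries, so the groups overlapped. The means were 2330 ± 84.5 CPM in APP and 2245 ± 95.5 CPM in WT (SD, n = 2). The log2 fold change was 0.05 (SE 0.06, FDR = 0.795, edgeR quasi-likelihood test, Benjamini-Hochberg adjustment over all 18386 features), and the 95% interval of the fold change was 0.948 to 1.14.

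The counts of Rian were 24163 and 27883 in the APP libraries (here and after, APP.3 first) and 39531 and 32862 in the WT libraries (WT.1 first), or 833, 900.2, 899.6 and 927 CPM. APP.3 was the lowest library, and APP.4 and WT.1 could hardly be told apart. The means were 867 ± 47.6 CPM in APP and 913 ± 19.4 CPM in WT (SD, n = 2). The log2 fold change was -0.08 (SE 0.06, FDR = 0.716, edgeR), with a fold interval of 0.857 to 1.05.

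Mirg, the miRNA host, was the lowest by CPM. Its APP counts were 1508 and 1958 and its WT counts 2679 and 2035, or 52.0, 63.2, 61.0 and 57.4 CPM. The 2 APP libraries were the lowest and the highest of the 4, and both WT libraries lay between them. The log2 fold change was -0.04 (SE 0.10, FDR = 0.925, edgeR), with a fold interval of 0.836 to 1.13. Its sign depended on single libraries, being 0.09 without APP.3 and 0.01 without WT.1.

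For Kcnq1ot1 the APP counts were 23133 and 27942 and the WT counts 39050 and 29897, or 797, 902, 889 and 843 CPM. As for Mirg, APP.3 was the lowest and APP.4 the highest library, with both WT libraries between them. The means were 850 ± 74.1 CPM in APP and 866 ± 32.0 CPM in WT (SD, n = 2). The log2 fold change was -0.03 (SE 0.07, FDR = 0.933, edgeR), with a fold interval of 0.873 to 1.10. It was 0.06 without APP.3 and 0.01 without WT.1.

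**Figure D1:**
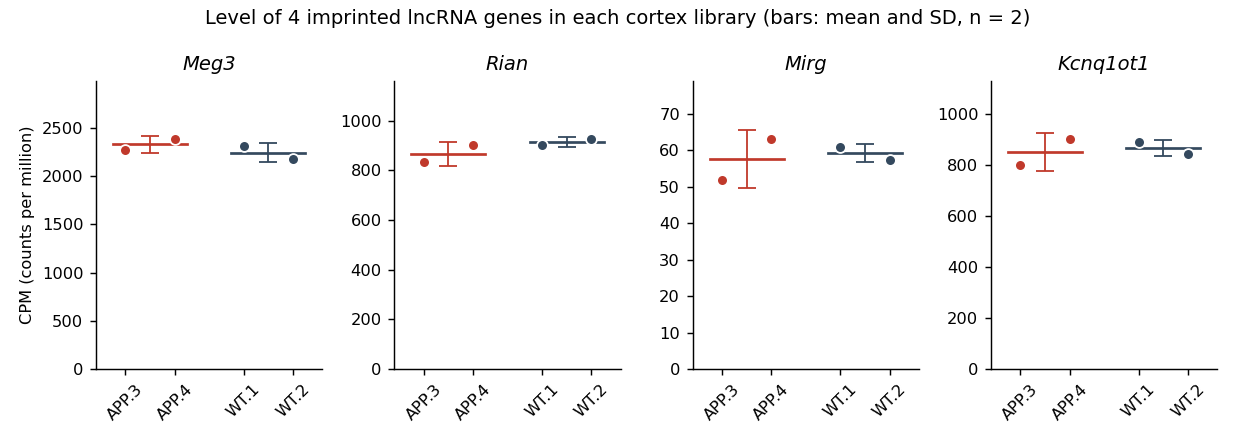
Each panel plots 1 gene, with the CPM of the 4 libraries on an axis that starts at 0; points are libraries, horizontal lines are group means and vertical bars are the SD (n = 2). In all 4 panels the groups overlap, and the APP libraries of Mirg run from 52.0 to 63.2 CPM, on either side of both WT libraries.

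Features were called at an FDR below 0.05 with levels differing by 1.5-fold or more. No member gene passed these cut-offs, which 0.881% of all features passed (162 of 18386), 0.843% as higher and 0.0381% as lower in APP. None of the 4 had an unadjusted p under 0.05 with edgeR's quasi-likelihood test, and the smallest p was 0.270, for Rian. None was called by DESeq2, by edgeR's exact test or by its likelihood ratio test. A p that misses the threshold does not show equal levels, and the intervals above give the differences these 4 libraries leave possible. The median log2 fold change of all features was -0.001, with quartiles of -0.11 and 0.15, so the 4 values lay inside the middle of the distribution. CPM that did not overlap between the groups occurred in 42.7% of all features and in none of the 4 genes.

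Per length, the genes of the Dlk1-Dio3 domain fell in the order Meg3, Rian, Mirg. Summed over transcripts, each divided by its length, Meg3 was at 444 ± 15.3 CPM per kilobase in APP and 434 ± 10.4 in WT. Rian was at 375 ± 27.5 CPM per kilobase in APP and 392.3 ± 7.36 in WT. Mirg was at 32.8 ± 4.51 CPM per kilobase in APP and 33.8 ± 0.764 in WT. Kcnq1ot1 was the lowest, at 9.13 ± 0.796 CPM per kilobase in APP and 9.30 ± 0.344 in WT (all SD, n = 2). None of these levels overlapped with that of the next gene in any library, the nearest being Meg3 in WT.2 at 427 and Rian in WT.2 at 398.

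The scale decided where Kcnq1ot1 stood. By CPM it was 69th of 18386 features, close to Rian at 64th, whereas by CPM per kilobase it was 6180th and Rian 57th. Meg3 was 16th by CPM and 47th per kilobase, and Mirg 3258th and 1763rd. The annotated 93092 bases of Kcnq1ot1 enter this level, so a shorter transcript in cortex would have a higher one. Together the 4 genes took 0.399% to 0.420% of the counts of a library.

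The proportions of the maternally expressed RNAs were compared within each library, which removes differences in library size. Rian had 0.367 counts per Meg3 count in APP.3 and 0.377 in APP.4, against 0.389 in WT.1 and 0.426 in WT.2. Both APP values lay below both WT values. With 2 libraries in each group the exact permutation test (two-sided) cannot give a p below 0.333, which is the value it gave here. Mirg had 0.0229 counts per Meg3 count in APP.3, whereas the 3 other libraries were all at 0.0264 (exact permutation p = 1). The ratio of Mirg to Rian, from 0.0619 to 0.0702, overlapped between the groups (exact permutation p = 0.667). These 3 ratios were the only ones tested, and no adjustment changes that none could pass.

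Transcripts of 1 gene share exons, and how the authors divided reads among them is not stated, so the transcript values are less certain than the gene sums. Of the 32 transcripts, 0 passed the cut-offs, which 0.807% of all 37539 transcripts did. Also 0 had an unadjusted p under 0.05 with edgeR's quasi-likelihood test, and DESeq2, edgeR's exact test and its likelihood ratio test called 0. In APP 12 transcripts had a higher fitted level and 20 a lower one. The intervals of 21 transcripts lay inside 1.5-fold. Over the 24 transcripts with at least 100 counts in all, the log2 fold change ran from -0.18 for Rian-216 to 0.29 for Meg3-204. The CPM of 10 transcripts (31.2%) did not overlap between the groups, against 38.5% of all transcripts.

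Meg3-209, the longest Meg3 transcript at 14548 bases, took 51.1% and 52.2% of the counts of Meg3 in APP and 50.9% and 50.3% in WT. Its log2 fold change was 0.09 (SE 0.07, FDR = 0.798, edgeR). Meg3-206, of 5971 bases, took 28.7% to 30.2% in the 4 libraries and differed by 0.03 (SE 0.07, FDR = 0.956). Meg3-201, of 1988 bases, took 14.7% to 15.9% and differed by 0.01 (SE 0.07, FDR = 0.986). Per kilobase the order of these 3 transcripts was the reverse of their order in counts, as the level plot shows. No stretch of 100 bases, the read length, is particular to Meg3-201, whereas 75.02% of those in Meg3-209 are.

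Rian-201, of 8089 bases, took 38.0% to 39.5% of the counts of Rian, and Rian-202, of 2355 bases, 33.7% to 34.9%. Their log2 fold changes were -0.09 for each (SE 0.07 for each, FDR = 0.801 and 0.815, edgeR). Rian-203 and Rian-209 each took close to the same remaining share, between 8.84% and 10.4%. Rian-215, a transcript of 633 bases with 125, 150, 176 and 128 counts, had the smallest p among Rian transcripts (log2 fold change 0.27, SE 0.17, FDR = 0.717).

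Mirg-201, which holds the miR-377 hairpin, took 34.02% and 34.98% of the counts of Mirg in APP and 33.6% and 31.4% in WT. Its log2 fold change was 0.05 (SE 0.11, FDR = 0.954, edgeR). Mirg-204, which holds the hairpins of miR-134, miR-485 and miR-410, took 27.3% and 28.0% in APP and 28.9% and 29.2% in WT, with a log2 fold change of -0.10 (SE 0.12, FDR = 0.879). Mirg-202, which also holds the miR-410 hairpin, took 14.5% to 14.9% and differed by -0.03 (SE 0.14, FDR = 0.982). Mirg-205 had the largest difference of the 32 transcripts at -1.58 (SE 0.98, FDR = 0.707), and rests on 1, 3, 5 and 11 counts.

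**Figure D2:**
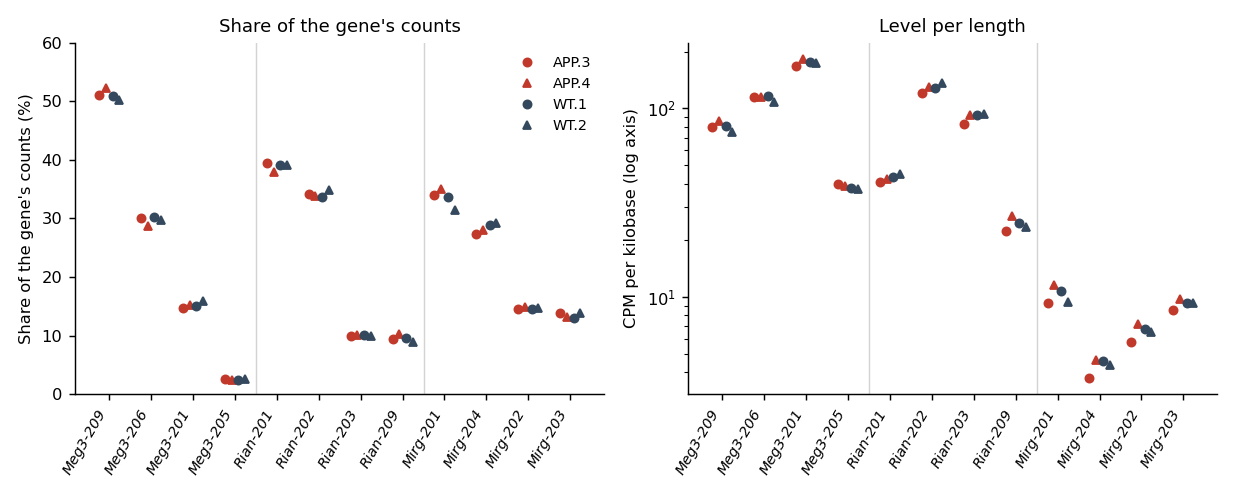
The left panel plots the share of each gene's counts (%) and the right panel the CPM per kilobase (log axis) of the 4 highest transcripts of Meg3, Rian and Mirg; red is APP, dark blue is WT, and circles and triangles are the 2 libraries of a group. The libraries lie close together within every transcript, and Meg3-209, with 50.3% to 52.2% of the counts of Meg3, is below Meg3-201 per kilobase.

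Whether a transcript's share of its gene differed was tested with edgeR's diffSpliceDGE, over the 31 transcripts of the 3 genes with more than 1. The share of 0 transcripts passed an FDR of 0.05, against 0.0338% of the 26648 transcripts tested in all genes. Also 0 had an unadjusted p under 0.05, and the smallest was 0.067, for Mirg-205. At the gene level, the Simes test of the same fit called 0 of the 3 genes.

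Along the domain, other features annotated next to the members or inside them were counted as separate genes. Gm26945, a lincRNA inside the span of Rian and on the same strand, had 1218 and 1834 counts in APP and 2324 and 1773 in WT (log2 fold change -0.02, SE 0.14, FDR = 0.974, edgeR). B830012L14Rik, a lincRNA between Rian and Mirg, had 518, 787, 1023 and 602 counts (log2 fold change 0.10, SE 0.18, FDR = 0.892). Both were lower in APP.3 than in APP.4, as Meg3, Rian, Mirg and, on another chromosome, Kcnq1ot1 were. The miRNA gene Mir1188, inside Rian, had 6, 11, 11 and 11 counts, and Gm25750, on the minus strand between Rian and Mirg, 14, 6, 11 and 10. At these counts their log2 intervals were wide, from -1.32 to 1.36 and from -1.09 to 1.76.

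**Figure D3:**
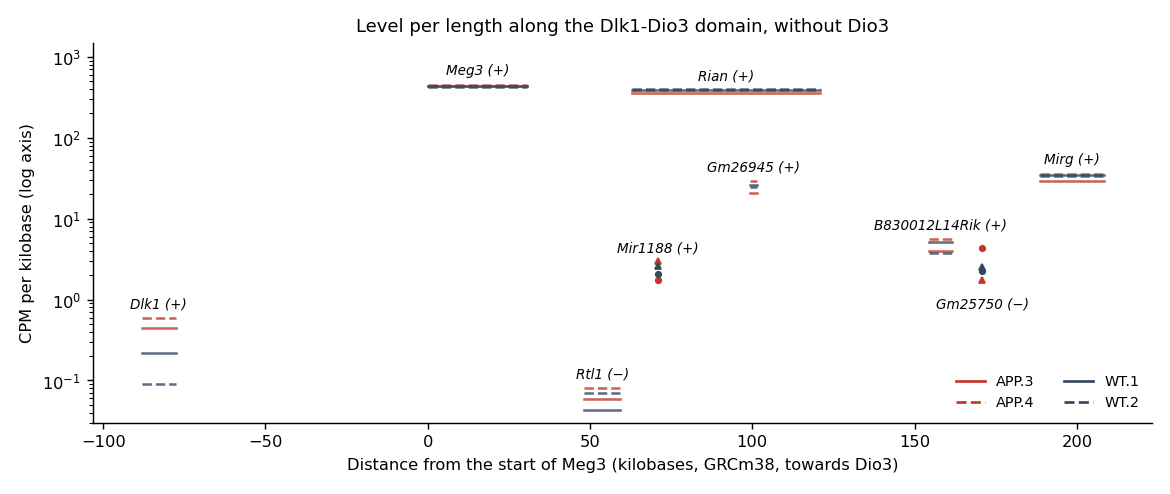
The plot shows the level of each counted feature in CPM per kilobase (log axis) against its distance from the start of Meg3 in kilobases, with signs for the strand; lines span the feature, features under 2 kilobases are points, red is APP and dark blue WT. Meg3 and Rian stand highest, at 427 to 455 and 355 to 398 CPM per kilobase, and Dlk1 and Rtl1 below 1; Dio3 lies 738 kilobases away and is left out.

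The paternally expressed protein-coding genes of the domain were near the floor of the measurement. Rtl1, a retrotransposon-derived gene antisense to maternal miRNAs, had 11, 16, 12 and 16 counts (log2 fold change 0.33, SE 0.51, FDR = 0.875, edgeR). Dio3, which inactivates thyroid hormone, had 24, 20, 28 and 26 counts (0.11, SE 0.37, FDR = 0.951). Dlk1, a transmembrane ligand related to Notch ligands, had 60 and 85 counts in APP and 45 and 15 in WT, or 2.07, 2.74, 1.02 and 0.423 CPM. Both APP libraries were above both WT libraries, and CPM did not overlap between the groups in 42.7% of all features. Its log2 fold change was 1.70 (SE 0.38, 95% interval 0.82 to 2.58) with an unadjusted p of 0.00191 and FDR = 0.0942, so it did not pass with edgeR's quasi-likelihood test. It passed with DESeq2 (FDR = 0.0257), with edgeR's exact test (FDR = 0.00251) and with its likelihood ratio test (FDR = 0.00232). Without WT.2 the log2 fold change was 1.24.

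Markers of the hypothalamus had their higher levels in the same libraries as Dlk1. Of 10 listed, 7 were counted, and all 7 had a higher fitted level in APP (median difference 2.74 on the log2 scale). Their summed level was 7.24 and 10.3 CPM in the APP libraries and 1.798 and 1.382 CPM in the WT libraries. Avp, the vasopressin gene, and Sim1, a transcription factor of hypothalamic neurons, passed the cut-offs, while Agrp, Hcrt and Otp had no row. The counts were low, at 18, 102, 2 and 0 for Avp and 29, 34, 2 and 0 for Sim1. Avp also differed between the APP libraries, at 0.620 CPM in APP.3 and 3.29 CPM in APP.4. Pomc, among the 7, had 9, 12, 10 and 7 counts (FDR = 0.699, edgeR). The part of this tissue in the Dlk1 values was not tested.

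Over the whole list of other genes of the Dlk1-Dio3 domain, 5 of 6 were counted, 0 passed the cut-offs and 1, Dlk1, had an unadjusted p under 0.05 with edgeR. The median log2 fold change was 0.11. Begain, a synaptic scaffold gene at the edge of the domain, had 12, 19, 25 and 27 counts and a log2 fold change of -0.36 (SE 0.43, FDR = 0.821), and Dio3os had no row.

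Kcnq1ot1 overlaps Kcnq1 on the opposite strand. Kcnq1 had 9, 7, 1 and 10 counts, against the 23133 to 39050 of Kcnq1ot1, and a log2 fold change of 0.89 (SE 0.93, FDR = 0.791, edgeR). The library protocol was strand-specific, but whether the counting used strand is not stated, so reads of this pair cannot be assigned with certainty. On either strand, 0.0387% of the stretches of 100 bases in Kcnq1ot1 also occur, letter for letter, in another counted gene. None of those in Meg3, Rian or Mirg do. The authors' alignment allowed mismatches, and stretches that are alike but not identical were not counted here.

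Of 11 other genes of the Kcnq1 domain, Kcnq1 included, 9 were counted and 0 passed the cut-offs, with a median log2 fold change of 0.13. Without adjustment, 2 had a p under 0.05 with edgeR. These were Cd81, a tetraspanin (3605, 3949, 4731 and 3572 counts, log2 fold change 0.27, SE 0.07, FDR = 0.116), and Slc22a18, an organic cation transporter (17, 9, 6 and 6 counts, 1.501, SE 0.64, FDR = 0.392). Nap1l4, a histone chaperone, had a log2 fold change of -0.01 (SE 0.07, FDR = 0.970). Cdkn1c, a cell cycle inhibitor and a known target of silencing by Kcnq1ot1, had 113, 101, 162 and 135 counts (-0.07, SE 0.17, FDR = 0.931). Ascl2 and Phlda2 had no row.

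At the Peg13 locus all 4 listed neighbours were counted although Peg13 was not. Trappc9, the trafficking gene whose intron holds Peg13, had 1084, 1282, 1917 and 1448 counts and a log2 fold change of -0.10 (SE 0.08, FDR = 0.689, edgeR). Kcnk9, a potassium channel gene expressed from the maternal copy, had 275, 286, 439 and 358 counts (-0.10, SE 0.12, FDR = 0.809). Chrac1 and Ago2, the latter a slicer of the miRNA pathway, differed by -0.06 and 0.03, and 0 of the 4 genes had an unadjusted p under 0.05. Among the genes of the 3 domains, DESeq2, edgeR's exact test and its likelihood ratio test each called 1, Dlk1.

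**Figure D4:**
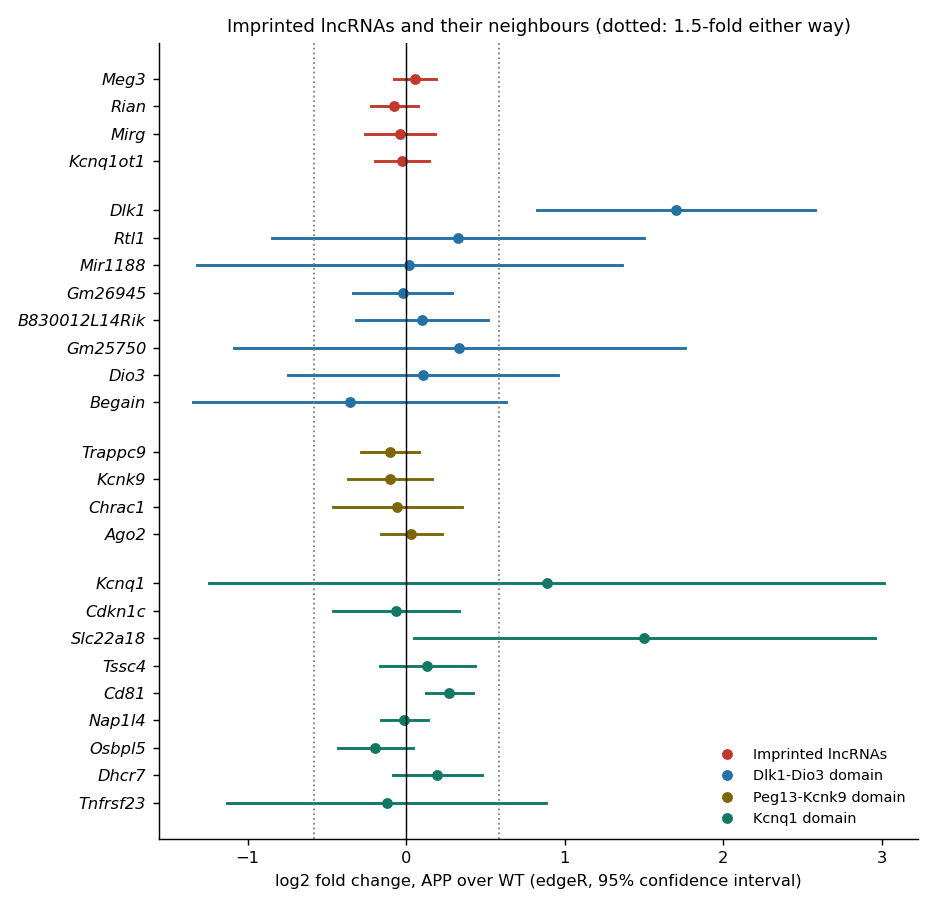
Points are log2 fold changes of APP over WT from edgeR and lines their 95% confidence intervals, for the 4 imprinted lncRNAs (red) and the counted neighbours in 3 imprinted domains; dotted lines mark 1.5-fold in either direction. The intervals of the 4 lncRNAs, the widest being -0.26 to 0.18 for Mirg, stay inside the dotted lines, whereas that of Dlk1 runs from 0.82 to 2.58.

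The course of each gene over the 4 libraries was also compared with that of the 14667 features with a mean of at least 1 CPM, by the distance between log2 CPM values centred on their mean. The 2 nearest to Meg3 were Wdr3 (distance 0.0066) and Huwe1 (0.0070). Those nearest to Rian were Cyld and Rfc5, those nearest to Mirg were Ugdh and Slmap, and those nearest to Kcnq1ot1 were Gm6180 and Trp53inp2. The distances between the members differed. Rian was the 3986th and Mirg the 4818th nearest to Meg3, although the 3 genes lie in 1 domain. Kcnq1ot1, on another chromosome, was the 209th nearest to Mirg, and Mirg the 474th nearest to Kcnq1ot1. With 4 libraries that differ little, such an order describes these libraries only.

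APP.3 was the lowest library for Rian, Mirg and Kcnq1ot1. The summed level of 6 striatal markers was also lowest there, at 134 CPM against 293 CPM in APP.4 and 197 and 219 CPM in the WT libraries, and each of the 6 was at its lowest there. Of 6 interneuron markers, 2 were at their lowest in APP.3, Gad1 and Slc32a1, and the other 4 were not. Their part in the levels of the lncRNAs was not tested. In bulk tissue, fewer cells of a type and less RNA per cell cannot be told apart.

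All 7 listed markers of cortical excitatory neurons were counted, and they summed to 1296 to 1467 CPM. Such a sum does not by itself show which region was dissected. With edgeR 0 of the 7 passed the cut-offs and 3 had an unadjusted p under 0.05, and all had a lower fitted level in APP (median log2 fold change -0.13). Of the glial markers, 4 of 7 microglial, 2 of 6 astrocyte and 1 of 6 oligodendrocyte genes passed the cut-offs, all of them higher in APP, and the medians of the lists were 0.72, 0.23 and 0.48. With edgeR 0 genes of the interneuron, endothelial, thalamic, striatal and choroid plexus lists passed, and 2 interneuron and 2 thalamic genes had an unadjusted p under 0.05.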

How the data were processed

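Per the study's methods, rRNA-depleted, strand-specific libraries of cortex RNA from 2 APP and 2 WT mice were sequenced as paired reads of 100 bases, and the authors aligned cleaned reads to mouse Ensembl RNAs with FANSe2. The submitters' processing notes name CASAVA 1.8, edgeR and, for these mouse samples, the build hg19. The Ensembl release and the division of reads shared by transcripts are not given in the sources used here. The deposited values used are whole-number read counts per transcript, and every transcript had at least 10 counts over the 4 libraries. Columns of the authors' fold changes, p-values and FDR were not used, nor were 4 further per-sample columns.

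Transcripts were matched to GENCODE M21 by Ensembl identifier (36858 of 37539, 98.2%) and summed per gene, and the 681 unmatched ones were kept as features of their own. The APP columns are numbered 3 and 4, which match no APP sample label, so these columns were assigned to the group only. Counts were tested with edgeR 4.0.16 (TMM factors, quasi-likelihood fit, R 4.3.3) over all features, with Benjamini-Hochberg adjustment, cut-offs of 0.05 for the FDR and 1.5 for the fold change. The adjusted p-values in the text come from this edgeR fit unless another tool is named. Intervals are 95% intervals of the fitted fold change. How many of all features had an unadjusted p under 0.05 was not counted. The numbers of list genes at that threshold therefore have no share to be set against. Alternatives were DESeq2 1.42.0, edgeR's exact and likelihood ratio tests, other scalings, a filter on low counts, transcripts in place of gene sums and leaving out each library. Scripts were tested on simulated data. The labels do not say more of the 2 mice per group than that they are separate samples. The quasi-likelihood p-values and intervals rest on the spread between them, moderated towards that of all features. This moderation had 6.54 prior degrees of freedom for gene sums and 13.1 for transcripts.

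The members, gene lists and tests were chosen with earlier results of these data known. Named are the members, called transcripts and the 3 of highest mean CPM per member, features inside or overlapping a member, the 2 features of nearest profile per member, and, of each list, genes with an FDR under 0.05 and the 2 highest. Other transcripts and genes were named after their values were seen, and of the marker lists only those that bear on a result. Sequences are from RefSeq (GRCm38.p6) and GENCODE M21.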

Additional observations from a re-analysis of the deposited data

How the results depend on the processing

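No paired analysis was possible because the numbers of the APP columns, 3 and 4, are shared with no WT column. The counts of called member genes, member transcripts and transcripts with a changed share were 0 under every alternative run. With 1 library left out, log2 fold changes were between 0.015 and 0.098 for Meg3, between -0.13 and -0.021 for Rian, between -0.19 and 0.094 for Mirg and between -0.12 and 0.059 for Kcnq1ot1. Such fits leave 1 library in a group, which is assumed to vary like the other group. The sign of Kcnq1ot1 changed without APP.3 (0.059) and without WT.1 (0.011). That of Mirg changed without APP.3 (0.094), without WT.1 (0.0051) and with Mirg-201 in place of the gene sum (0.049), a transcript of its own; the cause of the others was not tested. Among the other genes of the 3 domains, the count of 0 called was 1, Dlk1, with DESeq2, edgeR's exact test, its likelihood ratio test and transcripts in place of gene sums. With a library left out it ran from 0 to 1, being 0 without WT.2, and the log2 fold change of Dlk1 from 1.24 to 2.50. Why these tests differ was not tested. Depth limits the small features: Kcnq1, Mir1188 and Mirg-205 had at most 11 counts in any library, too few to exclude a 1.5-fold difference.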

Other observations

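Imprinted genes of other loci were counted as well. Of 39 listed protein-coding genes 37 were counted, 0 passed both cut-offs with edgeR, 2 had an FDR under 0.05 and 11 an unadjusted p under 0.05, with a median log2 fold change of 0.03. An FDR under 0.05 alone was reached by 1.14% of all features. The share of all features with an unadjusted p under 0.05 was not counted, so the 11 cannot be read as an excess. Nnat, which encodes a small membrane proteolipid of neurons, was at 41.8 CPM in APP.3 and 42.7 in APP.4 against 28.6 in WT.1 and 27.9 in WT.2 (log2 fold change 0.58, SE 0.07, FDR = 0.00845). Its fold change lay just below the cut-off of 1.5. Cobl, an actin nucleator, was at 56.8 and 68.9 CPM in APP against 90.8 and 88.6 in WT (-0.51, SE 0.09, FDR = 0.0394). The most abundant genes of the list, Peg3, a zinc finger gene, and Ppp1r9a, a synaptic phosphatase regulator, had log2 fold changes of 0.00 and -0.13 (FDR = 0.994 and 0.443). The hypothalamic markers described with Dlk1 were at their higher levels in the same libraries as Nnat, and 1 of them, Magel2, is itself imprinted and on both lists (35, 32, 15 and 14 counts). Their part in the Nnat values was not tested.

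Of 8 imprinted non-coding RNAs of other loci, 2 were counted. Snhg14, the long host of small nucleolar RNAs that runs antisense to Ube3a, was at 3755, 4338, 4434 and 4102 CPM in APP.3, APP.4, WT.1 and WT.2 (log2 fold change -0.08, SE 0.07, FDR = 0.755). It was lowest in APP.3, as Rian, Mirg and Kcnq1ot1 were. Airn, the antisense RNA of the Igf2r locus, had 27, 14, 21 and 20 counts (0.40, SE 0.47, FDR = 0.815). H19, Ipw, Nespas, Peg3os, Pwrn1 and Copg2os2 had no row.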
